A study of Mus musculus with 32 samples.

Results

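The comparison described here was of polysomal RNA levels in *Grin2d*-silenced and control 4T1 spheroids. 4T1 is a mouse mammary carcinoma line of the triple-negative kind. It used 8 of the 32 mRNA libraries of a polysome profiling experiment, the 4 polysomal libraries of ASP shGRIN2D and the 4 of ASP shSCR, and all 17555 of 17757 genes with a count in them. ASP shGRIN2D cells carried a short hairpin RNA against *Grin2d* and ASP shSCR cells a non-targeting hairpin, both from lentiviral vectors under puromycin selection. Both groups grew as spheroids over 5 days in a medium made to resemble that of the lung (LLM) with 700 µM aspartate, so every library in the comparison had aspartate. The other 2 conditions of the experiment were NoASP shSCR, the control cells without added aspartate, and ASP shDHPS, in which *Dhps* was silenced. The transduced cells were polyclonal populations, so that silencing and other differences between the transduced populations cannot be told apart. Replicates were separate spheroid pellets (n=4), and each pellet also gave a sub-polysomal library with fewer than 3 ribosomes per RNA.

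Translating mRNA carries several ribosomes and sediments deep in a sucrose gradient, whereas free and lightly loaded RNA stays near the top. The level of an mRNA in the polysomal fraction therefore joins its abundance with its loading on ribosomes. *Grin2d* encodes the GluN2D subunit of the N-methyl-D-aspartate (NMDA) receptor, a calcium-permeable channel that opens on glutamate or aspartate and is best known from neurons. Calcium entering through it can activate kinases that phosphorylate CREB, a transcription factor that binds cAMP response elements in promoters. The study asked whether this receptor links aspartate to eIF5A hypusination, TGF-β signaling and collagen production.

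The 4 ASP shGRIN2D polysomal libraries held 18730495, 22075701, 17812530 and 14571913 counts, and the 4 ASP shSCR libraries held 20583258, 20559903, 16938122 and 19323140. Depth was thus alike in the groups. Levels are CPM, counts per 1000000, after scaling by trimmed mean of M-values (TMM) within these 8 libraries, log2 differences are ASP shGRIN2D minus ASP shSCR, and values are listed in the order of replicates 1 to 4. As the libraries are bulk samples, fewer cells of a type and less RNA per cell cannot be told apart.

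All 6 epithelial markers fixed for 4T1 cells were present, and their summed level lay between 3146 and 7038 CPM, led by the keratin *Krt8* at 913 to 2573 CPM. Of the receptors that define the triple-negative class, *Esr1* stood at 2.19 to 5.93 CPM and *Erbb2* at 62.5 to 166 CPM, and *Pgr* had no row. Other cell types were checked in the same way. The endothelial *Pecam1* reached at most 0.395 CPM and the erythroid *Hba-a1* at most 0.497 CPM, and no adipocyte or neuron marker had a row. Of 5 fibroblast markers, *Thy1* (108 to 229 CPM) and *Pdgfra* (12.4 to 30.9 CPM) were present and *Pdgfrb*, *Dcn* and *Lum* had no row. The study used 4T1 cells with a Thy1.1 reporter for flow cytometry. Whether the sequenced cells carried it is not stated, and the source of the *Thy1* RNA was not tested. The 4 leukocyte markers with a row summed to 15.4, 16.3, 14.8 and 21.7 CPM in ASP shGRIN2D and to 10.6, 14, 11.4 and 13.5 CPM in ASP shSCR, with no overlap. Nearly all of this was the lysosomal *Cd68* (14.7 to 21.6 against 9.64 to 13.5 CPM), which tumour cells also express, whereas the pan-leukocyte *Ptprc* had 1 to 21 counts and the macrophage receptor *Csf1r* 0 to 4 counts per library. The B cell gene *Cd79a* had 1, 0, 0 and 0 counts against 12, 1, 0 and 7, the other way from the sum. *Adgre1* and *Cd3e* had no row.

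One control library stood apart. Each library was placed on a line between the mean sub-polysomal profile (0) and the mean polysomal profile (1) of the 2 other conditions, over 11046 genes. ASP shGRIN2D polysomal libraries lay at 1.09, 0.761, 0.876 and 1.07. ASP shSCR polysomal replicate 1 lay at 0.35, and replicates 2 to 4 at 0.751, 1.00 and 0.972. No other polysomal library was below 0.751, and the sub-polysomal libraries spanned -0.131 to 0.0957. Its TMM factor, 0.7909, was also the lowest of the 8, where the others ranged from 0.9664 to 1.088.

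**Figure D1:**
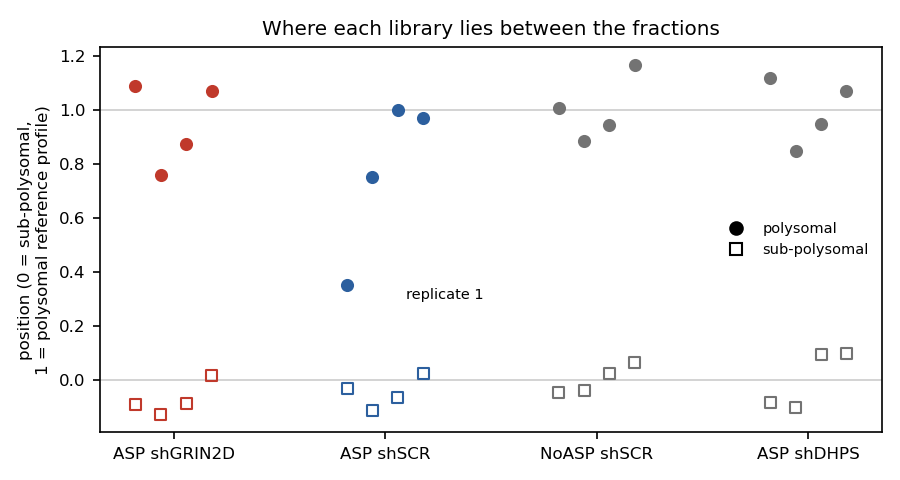
Position of each of the 32 libraries between the mean sub-polysomal profile (0) and the mean polysomal profile (1) of NoASP shSCR and ASP shDHPS, one point per library, replicates 1 to 4 from left to right in each condition. On this line ASP shSCR polysomal replicate 1 sits at 0.35 and every other polysomal library at 0.751 or above.

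The RNAs that set this library apart were named ones. The 13 mitochondrially encoded mRNAs, which are translated inside mitochondria and not on cytosolic polysomes, summed to 54456 CPM in ASP shSCR replicate 1 and to 6230, 7914 and 9143 CPM in replicates 2 to 4, against 3096, 10597, 11009 and 6993 CPM in ASP shGRIN2D. *mt-Nd1*, a subunit of respiratory complex I, had 14107 CPM in that library and 253 to 831 CPM in the other 7. The 79 cytosolic ribosomal protein mRNAs summed to 116265 CPM there and to 49616 to 94149 CPM elsewhere, and *Rplp0*, which encodes a protein of the ribosomal stalk, to 12880 CPM against 539 to 989 CPM. *Odc1*, the first enzyme of polyamine synthesis, had 4268 CPM there and 154 to 257 CPM in the other 7 libraries. Nuclear noncoding RNAs and snoRNA hosts summed to 762 CPM there and to 189 to 399 CPM elsewhere. In the 8 sub-polysomal libraries of the same pellets, which were scaled separately, *mt-Nd1* had 3530 to 12272 CPM, *Rplp0* 3518 to 8650 CPM and *Odc1* 537 to 966 CPM. ASP shSCR polysomal replicate 1 was above each of these ranges too, so its position on the line describes only part of its difference.

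Leaving this library out moved the log2 difference of 349 of 10874 genes with a mean of at least 50 counts by more than 1. All 349 were lower in ASP shGRIN2D with the library than without it, and 0 moved the other way. The sign of the difference changed for 2250 genes, and the median move was 0.11 in size. Of 487 genes lower at an unadjusted p under 0.05 with the library, 106 were also lower at that level without it. For genes on the higher side, 90 of 125 were. Differences on the lower side therefore rest on this library more often, and the main results below are given with and without it.

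**Figure D2:**
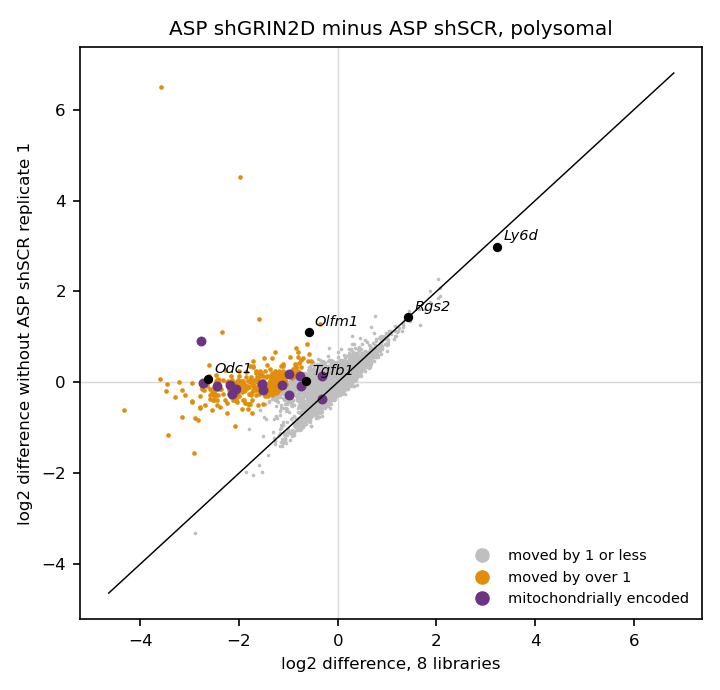
Log2 difference of each gene with a mean of at least 50 counts, ASP shGRIN2D minus ASP shSCR in polysomes, from 8 libraries (x) and without ASP shSCR replicate 1 (y), one dot per gene. The 349 genes in orange moved by more than 1, all to the left of the diagonal, among them many of the 13 mitochondrially encoded mRNAs and *Odc1*, whereas *Ly6d* and *Rgs2* stayed near the diagonal.

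The silenced gene was checked first. *Grin2d* (ENSMUSG00000002771, chr7:45831883-45878378, minus strand, GRCm38) had 40, 27, 21 and 35 counts in ASP shGRIN2D and 61, 63, 76 and 71 in ASP shSCR. These were levels of 2.07, 1.18, 1.12 and 2.49 CPM (1.71 ± 0.672, SD, n=4) against 3.75, 2.82, 4.29 and 3.59 CPM (3.61 ± 0.610, SD, n=4). Every silenced library lay below every control library, and below all 8 libraries of NoASP shSCR (2.99 to 4.32 CPM) and ASP shDHPS (2.95 to 6.36 CPM). The two-sided exact permutation p was 0.0286, the smallest that 70 splits of 4 against 4 can give. In edgeR's quasi-likelihood fit over all genes the log2 difference was -1.08 (SE 0.37), which did not pass Benjamini-Hochberg adjustment (adjusted p = 0.816). Without ASP shSCR replicate 1 it was -1.07, and in the sub-polysomal libraries of the same pellets -0.88 (SE 0.31, adjusted p = 0.343). Its partner *Grin1*, the obligate subunit of NMDA receptors, had 0 counts in all 8 libraries, so that it was not detectable at this depth.

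Over all genes, edgeR without a term for replicate number called 0 genes higher (0%) and 0 lower (0%) of 17555 at an adjusted p under 0.05. The smallest adjusted p was 0.23, and 288 genes were higher and 741 lower at an unadjusted p under 0.05. Without ASP shSCR replicate 1 the calls were again 0 (0%) and 0 (0%), of 17507 genes, with 295 higher and 405 lower at an unadjusted p under 0.05. DESeq2 called 20 higher and 10 lower with 8 libraries, and 25 and 15 with 7. In edgeR, leaving out ASP shSCR replicate 2 from the 8 gave 1 higher call (*Ly6d*), and leaving out ASP shGRIN2D replicate 2 from the 7 gave 13 higher and 6 lower. Leaving out ASP shSCR replicate 2 or 4 from the 7 gave 1 higher call each, and ASP shGRIN2D replicate 4 gave 1 lower. Groups that do not overlap were counted as a description. With 8 libraries 256 genes (1.46%) had all silenced libraries above all controls and 198 (1.13%) all below, and without ASP shSCR replicate 1 these were 393 (2.24%) and 478 (2.73%). The median SE of genes with at least 50 counts was 0.29 on the log2 scale.

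The genes with the smallest p and groups that do not overlap are named next, and none of them passed the threshold of this fit in polysomes. Among the 12 on the higher side were *Ly6d*, a GPI-anchored protein of basal and squamous epithelia and of lymphoid progenitors, *Rgs2*, which turns off G protein signaling, and several proteins of the cell surface and matrix. *Ly6d* (ENSMUSG00000034634) had 7.70, 14.4, 8.04 and 5.54 CPM in ASP shGRIN2D and 0.430, 2.01, 0.565 and 0.709 CPM in ASP shSCR. The lowest silenced library was above the highest control, and the fitted difference was 9.4-fold (log2 3.23, SE 0.49, adjusted p = 0.23). *Rgs2* (ENSMUSG00000026360) had 32.3, 37.2, 38.4 and 29.0 CPM against 12.7, 9.43, 17.3 and 11.3 CPM, a 2.7-fold difference (log2 1.43, SE 0.25). *Odf3l1* (ENSMUSG00000045620), named for its likeness to a protein of sperm tail fibers, had 34.2, 26.6, 31.3 and 30.4 CPM against 11.9, 12.1, 13.1 and 8.71 CPM (log2 1.42, SE 0.24). For these 3 genes the difference without ASP shSCR replicate 1 was 2.99, 1.43 and 1.44.

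The proteoglycan NG2, encoded by *Cspg4*, had 6.10, 3.68, 5.43 and 6.11 CPM in silenced spheroids and 0.737, 0.760, 1.69 and 1.87 CPM in controls (log2 2.07, SE 0.40, and 1.89 without ASP shSCR replicate 1). *Gas7*, an actin-binding adaptor, had 6.57, 8.68, 5.27 and 4.05 CPM against 0.860, 1.47, 1.47 and 2.13 CPM (log2 2.04, SE 0.37, and 1.86 without it). Both were low in all 4 controls. *Extl1*, a glycosyltransferase of the heparan sulfate family, differed by log2 1.64, the matricellular *Thbs2* by 1.77, the extracellular superoxide dismutase *Sod3* by 1.32 and the Ras-responsive *Tmem158* by 1.17. Without ASP shSCR replicate 1 these 4 stood at 1.62, 1.61, 1.22 and 1.25. *Gpnmb*, a glycoprotein of lysosomes and melanosomes, had 52.2, 32.7, 41.0 and 83.3 CPM against 21.2, 13, 19.5 and 22.8 CPM (log2 1.45, and 1.50 without ASP shSCR replicate 1), and 68.7 to 114 CPM in ASP shDHPS, where *Grin2d* was not the target. *Cd300lb*, an activating receptor of myeloid cells, had 14.2, 13.7, 11.6 and 6.75 CPM against 3.19, 5.99, 3.61 and 4.00 CPM (log2 1.46). The higher leukocyte marker sum described above, nearly all of it *Cd68*, went with these last 2, and its part in them was not tested. *Lilrb4b*, also a leukocyte receptor, was fitted lower (log2 -1.60).

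**Figure D3:**
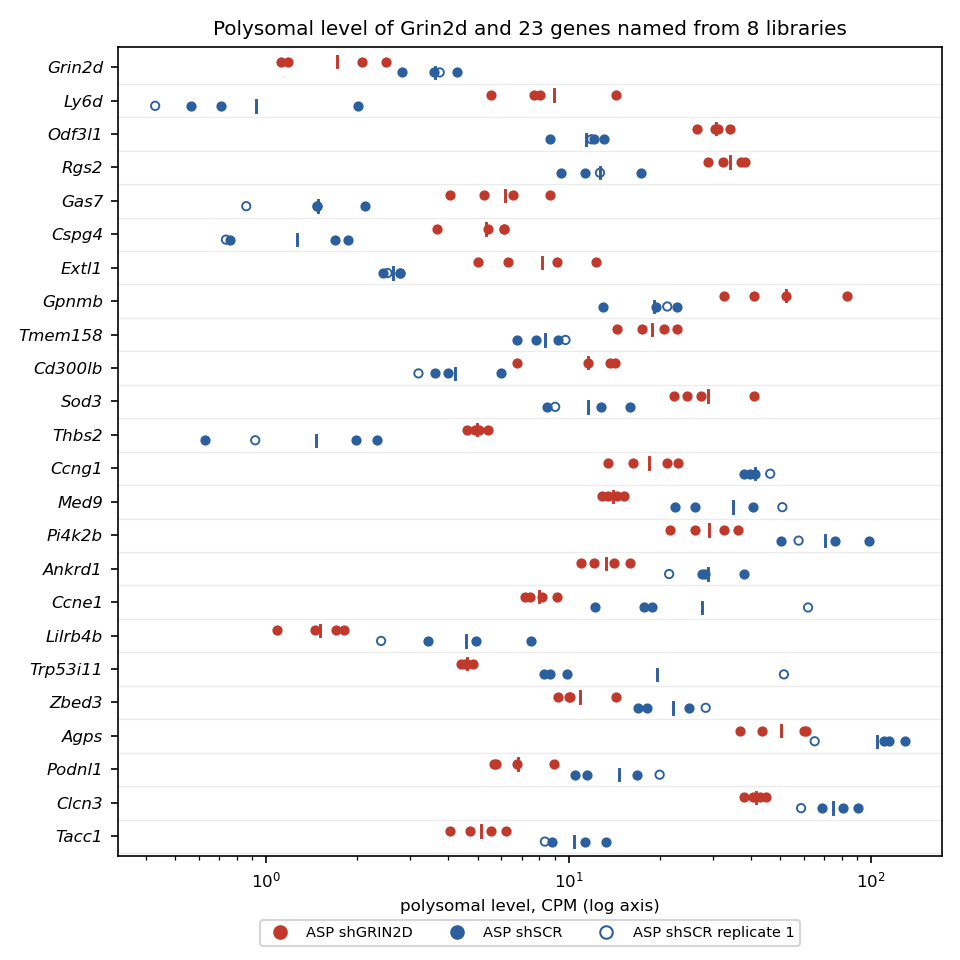
Polysomal level in CPM (log axis) of *Grin2d* and of 11 genes on the higher and 12 on the lower side with the smallest p and groups that do not overlap, one point per library, vertical bars at the group means, open circles for ASP shSCR replicate 1. The red and blue points do not overlap in any row by the rule that chose the genes, and for *Ccne1* and *Trp53i11* the open circle lies far to the right of the other controls.

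None of the 12 genes on the lower side passed the threshold either. *Ccng1*, cyclin G1, a p53 target, had 16.3, 23.0, 21.1 and 13.5 CPM in ASP shGRIN2D and 46.4, 41.4, 37.9 and 39.8 CPM in ASP shSCR (log2 -1.16, SE 0.24, adjusted p = 0.493). *Med9*, a subunit of the Mediator complex, had 12.9, 15.3, 14.5 and 13.5 CPM against 50.9, 40.8, 22.5 and 26.1 CPM (log2 -1.32, SE 0.28). The silenced libraries of *Med9* lay close together, and those of *Ccng1* were spread more widely than its controls. *Pi4k2b*, a phosphatidylinositol 4-kinase, had 21.7, 36.4, 32.6 and 26.2 CPM against 57.6, 98.4, 50.3 and 75.9 CPM (log2 -1.27). *Agps*, an enzyme of ether lipid synthesis, had 43.6, 61.0, 59.8 and 36.8 CPM against 65.1, 129, 110 and 115 CPM (log2 -1.06). Here ASP shSCR replicate 1 was the control nearest to the silenced libraries, and without it the difference was -1.23. *Ankrd1*, a nuclear ankyrin repeat protein and YAP target, had 11, 16, 14.1 and 12.1 CPM against 21.5, 27.7, 28.3 and 38.1 CPM (log2 -1.12). With 7 libraries *Ccng1* was at -1.11, *Med9* at -1.09, *Pi4k2b* at -1.36 and *Ankrd1* at -1.24.

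2 of the 12 lower genes leaned on the displaced library. *Ccne1*, cyclin E1, had 9.15, 7.45, 8.20 and 7.17 CPM in ASP shGRIN2D and 61.9, 12.2, 18.9 and 17.7 CPM in ASP shSCR, and its log2 difference went from -1.79 to -1.02 without replicate 1. The p53-inducible *Trp53i11* had 4.55, 4.6, 4.42 and 4.83 CPM against 51.5, 8.31, 8.70 and 9.87 CPM, and went from -2.09 to -0.96. The groups still did not overlap in either gene. The remaining 5 were *Lilrb4b*, an inhibitory leukocyte receptor (-1.60), *Zbed3*, an Axin-binding zinc finger protein (-1.02), the matrix protein *Podnl1* (-1.11), the endosomal chloride-proton exchanger *Clcn3* (-0.84) and the coiled-coil protein *Tacc1* (-1.02), which stood at -1.82, -0.88, -0.93, -0.95 and -1.12 without it. *Clcn3* had 45.0, 38.1, 42.8 and 40.8 CPM against 58.7, 90.8, 68.8 and 80.7 CPM.

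Without ASP shSCR replicate 1 the same rule added 8 genes on each side, none past the threshold. *Olfm1*, a secreted glycoprotein of the olfactomedin family, showed the widest gap between the fits. It had 76.4, 57.1, 68.6 and 64.0 CPM in ASP shGRIN2D, 310 CPM in ASP shSCR replicate 1 and 25.7, 30.9 and 35.9 CPM in replicates 2 to 4. Its log2 difference was -0.59 with 8 libraries and 1.11 (SE 0.24, adjusted p = 0.269) with 7. *Cryab*, a small heat shock protein, went from 0.46 to 0.98 in the same way, with 22.8 CPM in replicate 1 against 7.68 to 9.11 CPM in the other controls. The water channel *Aqp1* (1.09), *Igfbp7* (1.14), the annexin *Anxa8* (1.03), the heparan sulfate 6-O-endosulfatase *Sulf2* (1.14), the G protein subunit *Gnao1* (1.19) and *Emp3* (0.82) were also higher without overlap. On the lower side *Pgap1*, which remodels GPI anchors, had 4.91, 5.57, 9.80 and 5.4 CPM against 21.3, 16.1 and 21.1 CPM in controls 2 to 4 and 9.64 CPM in control 1 (log2 -1.60 without replicate 1, -1.41 with it). *Has2*, the hyaluronan synthase, had 27.4, 34.2, 32.1 and 29.4 CPM against 66.3, 49.3 and 62.9 CPM, and 33.6 CPM in control 1. Others were *Pcmtd1* (-1.24), the natriuretic peptide clearance receptor *Npr3* (-1.32), the hedgehog inhibitor *Hhip* (-1.11), *Tmem51* (-1.29) and the NAD synthetic enzyme *Nmnat2* (-1.15).

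Since CREB lies between the receptor and gene expression in the question of the study, the promoters of the named genes were searched for the cAMP response element TGACGTCA and for its shorter core TGACG or CGTCA, on both strands. The element is its own reverse complement, and each element also holds the core. RefSeq promoters on GRCm38.p6 ran from 250 bases before to 50 after the start, and 549 of 27025 genes (2.03%) held the element and 6228 (23.0%) the core. These 27025 include genes not tested here, whereas the named genes had at least 50 counts. No share over genes of like expression was taken, so an excess or lack of the motifs cannot be read from the counts below. Of the 20 named genes on the higher side 14 had a promoter, with 0 elements and 2 cores (*Cd300lb* and *Rgs2*). Of the 20 on the lower side 14 had one, with elements in 2 (*Clcn3* and *Hhip*) and cores in 7. Of the 40 immediate early and CREB-responsive genes in the fixed list 29 had a promoter, with elements in 4 (*Areg*, *Btg2*, *Dusp1* and *Maff*) and cores in 20. The 3 promoters below are those of *Rgs2*, which belongs to that list and was higher, and of the 2 lower genes with the element, at chr1:144004100-144004399, chr8:60983262-60983561 and chr8:80057959-80058258, all on the minus strand. Capitals mark the core in *Rgs2* and the element in *Clcn3* and *Hhip*.
Rgs2: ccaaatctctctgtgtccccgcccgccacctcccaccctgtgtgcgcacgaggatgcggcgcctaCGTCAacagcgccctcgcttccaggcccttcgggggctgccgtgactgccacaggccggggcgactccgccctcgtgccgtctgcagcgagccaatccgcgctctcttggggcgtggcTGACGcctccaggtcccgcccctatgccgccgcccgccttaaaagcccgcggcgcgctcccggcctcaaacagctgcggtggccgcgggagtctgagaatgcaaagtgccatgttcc
Clcn3: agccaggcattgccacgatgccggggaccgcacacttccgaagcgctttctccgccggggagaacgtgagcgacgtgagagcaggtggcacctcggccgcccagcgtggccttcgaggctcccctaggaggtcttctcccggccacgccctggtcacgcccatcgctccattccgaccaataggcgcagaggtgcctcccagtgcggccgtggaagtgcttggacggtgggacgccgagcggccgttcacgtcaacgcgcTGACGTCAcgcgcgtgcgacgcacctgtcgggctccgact
Hhip: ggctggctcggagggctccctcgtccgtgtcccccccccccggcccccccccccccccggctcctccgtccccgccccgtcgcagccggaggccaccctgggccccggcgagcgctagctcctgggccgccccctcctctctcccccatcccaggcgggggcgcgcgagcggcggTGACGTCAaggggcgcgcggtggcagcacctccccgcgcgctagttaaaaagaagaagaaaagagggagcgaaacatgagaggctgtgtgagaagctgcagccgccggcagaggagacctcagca

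A match in letters is not a bound site, and CREB binding was not measured here. In the fit of 8 libraries *Rgs2* was 2.7-fold higher while *Clcn3* was 0.557-fold and *Hhip* 0.511-fold of control (log2 -0.84 and -0.97).

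Some named genes lie side by side, which was looked at after their values were seen. *Cspg4* (chr9:56865033-56899870, plus strand, GRCm38) and *Odf3l1* (chr9:56848659-56864679, minus strand) are 353 bases apart and point away from each other, and both were higher in ASP shGRIN2D. The next 6 tested genes within 200 kb of *Cspg4*, which are *Snx33*, *Imp3*, *Snupn*, *Ptpn9*, *Gm10658* and *Sin3a*, had log2 differences of 0.34, 0.12, 0.62, 0.03, 0.09 and 0.09. *Ly6d* (chr15:74762056-74763620, minus strand) lies in a cluster of genes for small GPI-anchored or secreted proteins of its own family. There *Lynx1*, a modulator of nicotinic receptors at 9009 bases, differed by 1.30 (SE 0.43), the secreted *Slurp1* by 1.68 (SE 0.88) and *Ly6e* by 0.95 (SE 0.24), none past the threshold. *Slurp1* had 8, 23, 13 and 11 counts against 0, 13, 4 and 1. In the sub-polysomal libraries of the same pellets edgeR called it higher (log2 3.40, adjusted p = 0.0154). *Lypd2*, with 0 to 3 counts per library, was at 1.41 (SE 1.30). *Jrk*, also within 200 kb, was at 0.17. *Them6* went from -0.50 to 0.42 and *Arc* from -1 to 0.02 without ASP shSCR replicate 1, in which they had 210 and 48 counts against 48 to 115 and 5 to 18 in the other libraries.

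The genes of the study's own pathway are given by role, beginning with the receptor. Of the fixed list of glutamate receptor subunits and related proteins 5 were tested, with *Grin2d* as the one member whose groups did not overlap, beside 1.13% of all genes on the lower side. *Grina*, a receptor-associated membrane protein, differed by -0.25 with 8 libraries and 0.17 with 7, and the kainate receptor subunit *Grik5* by 0.02. Of 28 CREB family members, coactivators and calcium kinases 18 were fitted above 0 and 10 below, with a median of 0.09 against 0.01 for all genes. *Creb1* itself had 38.6, 72.0, 77.0 and 35.4 CPM in ASP shGRIN2D and 47.5, 63.2, 55.3 and 51.2 CPM in ASP shSCR (log2 0.04, SE 0.29), and the groups overlapped. The catalytic subunit of protein kinase A, *Prkaca*, went from -1.51 to -0.01 without ASP shSCR replicate 1, where it had 581 CPM against 62.5 to 77.7 CPM in the other controls. Calcium kinase *Camk1d* had 46.6, 41.9, 41.3 and 43.7 CPM against 21.6, 22.2, 28.3 and 41.9 CPM (log2 0.61, SE 0.26).

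Immediate early and CREB-responsive genes were not lower as a list. Of 40 tested members 24 were fitted above 0 and 16 below with 8 libraries, and 32 above and 8 below with 7, with medians of 0.19 and 0.35. Single libraries moved the median with 8 between 0.03 and 0.35. The medians of all genes were 0.01 and 0.00. *Rgs2* was the 1 member of 40 whose groups did not overlap, beside 1.46% of all genes on the higher side, and no member passed the threshold. The AP-1 subunit *Jund* moved from -2 to -0.09 and the phosphatase *Dusp5* from -1.43 to 0.38 without the displaced control. *Fosl2*, another AP-1 subunit, stood at 0.70 and 0.60.

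Enzymes of hypusination showed no difference beyond their spread. *Dhps*, deoxyhypusine synthase, had 31.5, 45.9, 27.1 and 34.1 CPM in ASP shGRIN2D and 20.6, 45.7, 37.0 and 32.7 CPM in ASP shSCR (log2 0.03, SE 0.28). *Dohh*, the hydroxylase that completes hypusine, had 109, 117, 83.6 and 113 CPM against 67.2, 116, 106 and 107 CPM (log2 0.09, SE 0.24). *Eif5a*, the protein that carries hypusine, had 1404, 2138, 1636 and 1504 CPM against 1770, 2291, 1836 and 1646 CPM (log2 -0.17, SE 0.24). Without ASP shSCR replicate 1 the 3 were at -0.16, -0.06 and -0.21, and their groups overlapped. An SE near 0.25 leaves differences of that size undetectable here. Of 24 members of the hypusine and polyamine list 7 were fitted above 0 and 17 below, with a median of -0.14 (-0.09 with 7 libraries). *Odc1* went from -2.62 to 0.07.

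TGF-β ligands, receptors and SMADs leaned to the higher side, with 30 of 38 fitted above 0 (27 of 38 without ASP shSCR replicate 1) and a median of 0.13. *Tgfb1*, the main ligand, had 124, 99.7, 107 and 102 CPM in ASP shGRIN2D and 352, 123, 96.6 and 100 CPM in ASP shSCR. With 8 libraries its log2 difference was -0.64 (SE 0.38) and with 7 it was 0.02 (SE 0.23), so the difference came with 1 control library. The ligand *Tgfb3* had 155, 80.7, 91.2 and 113 CPM against 58.9, 71.9, 83.4 and 63.4 CPM (log2 0.66, SE 0.26, and 0.59 with 7 libraries). The co-receptor *Tgfbr3* had 7.86, 3.55, 4.79 and 6.04 CPM against 2.27, 3.04, 2.99 and 2.68 CPM (log2 1.01, SE 0.33, and 0.93 with 7 libraries), with no overlap. *Smad3* was at 0.20 (SE 0.26) with overlapping groups. The activin subunit *Inhba* stood at -0.74 and the SMAD repressor *Skil* at -0.48 (-0.96 and -0.56 with 7 libraries). *Skil* was without overlap in both fits and *Inhba* with 7 libraries. Of the 38 members 1 was higher and 1 lower without overlap, beside 1.46% and 1.13% of all genes. With 7 libraries these were 1 and 2, beside 2.24% and 2.73%.

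Of 28 tested TGF-β target genes 17 were fitted above 0 and 11 below, and the median was 0.12 (0.16 with 7 libraries). Single libraries moved this median between -0.03 and 0.18. 2 of the 28 had all silenced libraries below all controls, beside 1.13% of all genes. *Pdgfb*, a platelet-derived growth factor, had 17.4, 9.60, 13.6 and 17.3 CPM against 27.3, 37.7, 21.5 and 21.2 CPM (log2 -0.90, SE 0.28, and -0.90 with 7 libraries). *Pmepa1*, which restrains TGF-β signaling, went from -1.81 to -0.47 without the displaced control. On the other side the integrin subunit *Itgb3* stood at 1.16 (SE 0.39), with overlap.

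Among collagens, 14 of 22 tested chains were fitted above 0 and 8 below, with a median of 0.32 (0.26 with 7 libraries), and none passed the threshold. *Col6a1*, a chain of the beaded microfibrils, had 74.1, 28.5, 62.8 and 121 CPM in ASP shGRIN2D and 24.9, 18.4, 39.6 and 39.5 CPM in ASP shSCR (log2 1.22, SE 0.39, adjusted p = 0.816, and 1.14 with 7 libraries). Silenced replicate 2 lay within the control range. Its partner *Col6a2* differed by 1.33 (SE 0.51) and the fibrillar *Col5a1* by 0.77 (SE 0.40), with overlap. Lower chains were *Col15a1*, a basement membrane collagen with 4, 3, 4 and 3 counts against 31, 8, 15 and 8 (log2 -2.16, SE 0.73, and -1.46 with 7 libraries), and *Col7a1*, the anchoring fibril collagen, at -0.37 (SE 0.31, and -0.60 with 7 libraries). *Col15a1* was without overlap in both fits and *Col7a1* with 7 libraries, and *Col5a3* had 3 to 5 counts in silenced libraries and 0 in each control. With 8 libraries this is 1 higher and 1 lower chain of 22, beside 1.46% and 1.13% of all genes, and with 7 it is 1 and 2 of 21, beside 2.24% and 2.73%. Single libraries moved the median of this list between -0.04 and 0.51. *Col1a1*, the main chain of type I collagen, was under 1 CPM in the 8 libraries. Of 27 enzymes that fold and crosslink collagen 18 were fitted above 0 and 9 below, with 0 members whose groups did not overlap, and the prolyl hydroxylase subunit *P4ha2* stood at -0.93 (SE 0.37).

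**Figure D4:**
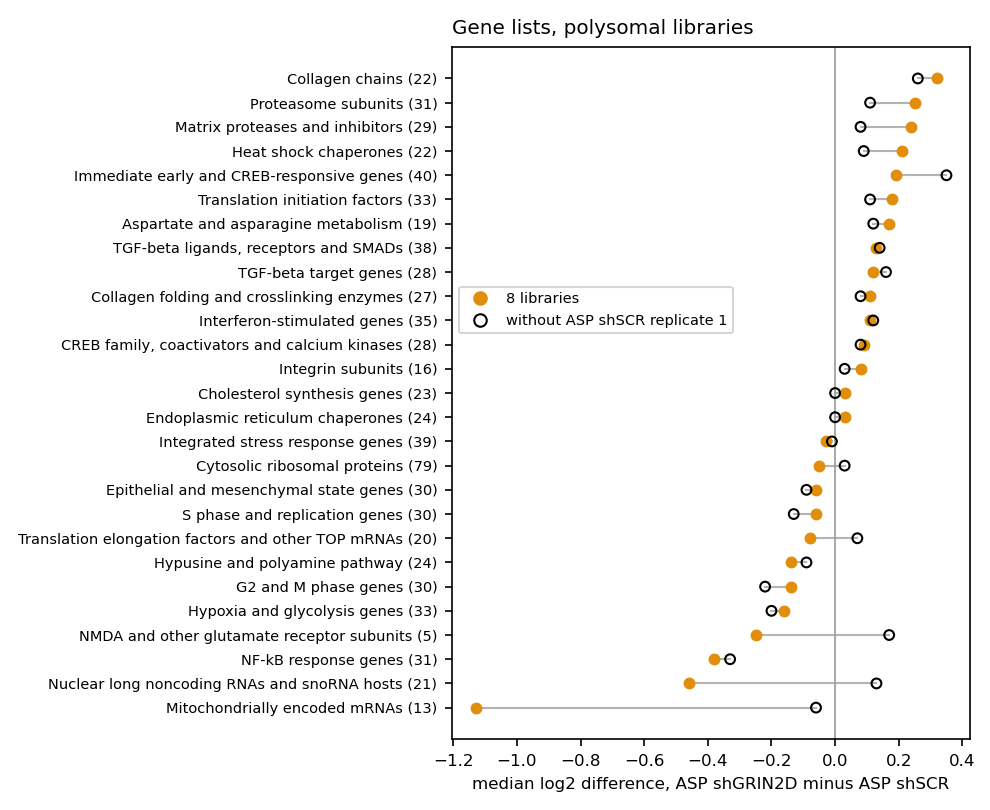
Median log2 difference over the tested members of each fixed gene list (number in parentheses), ASP shGRIN2D minus ASP shSCR in polysomes, from 8 libraries (orange) and without ASP shSCR replicate 1 (open). Mitochondrially encoded mRNAs move from -1.13 to -0.06 and nuclear noncoding RNAs from -0.46 to 0.13, whereas NF-κB response genes stay at -0.38 and -0.33.

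The mitochondrially encoded mRNAs and some lists of the translation machinery moved with the displaced control. The 13 mitochondrially encoded mRNAs were all fitted below 0 with 8 libraries, and 4 above and 9 below with 7, the median going from -1.13 to -0.06. Cytosolic ribosomal proteins went from 27 above and 52 below (median -0.05) to 42 above and 37 below (0.03). Elongation factors and other mRNAs with a terminal oligopyrimidine tract went from a median of -0.08 to 0.07. Initiation factors leaned higher in both fits, with 24 of 33 fitted above 0 (26 with 7 libraries) and medians of 0.18 and 0.11. Against the mean of the other 3 conditions, a fit given below, their median was 0.01. In 3 of the 33, *Eif2b1*, *Eif2b2* and *Eif4e2*, the silenced libraries were all above the controls, beside 1.46% of all genes. The eIF2B subunits exchange the guanine nucleotide of eIF2, and *Eif4e2* encodes a cap-binding protein. Proteasome subunits leaned the same way, with 30 of 31 fitted above 0 (27 with 7 libraries) and medians of 0.25 and 0.11, and *Psma6* was without overlap, 1 of 31 beside the same 1.46%.

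The members of the interferon-stimulated list with the smallest p encode class I antigen presentation proteins, and none passed the threshold. *H2-D1*, a class I heavy chain, had 1328, 897, 886 and 1217 CPM in ASP shGRIN2D and 505, 676, 714 and 567 CPM in ASP shSCR (log2 0.81, SE 0.25, adjusted p = 0.816). *H2-K1*, another class I heavy chain, had 490, 308, 317 and 458 CPM against 173, 243, 269 and 217 CPM (log2 0.80, SE 0.25). Neither gene overlapped between groups, and without ASP shSCR replicate 1 they were at 0.73 and 0.69. Their light chain *B2m* had 666, 1048, 1082 and 786 CPM against 354, 714, 581 and 430 CPM (log2 0.79, SE 0.28), with overlap. The leukocyte marker sum described above, nearly all of it *Cd68*, was also higher in ASP shGRIN2D, and its part in these class I genes was not tested. The leukocyte genes *Cd79a* and *Lilrb4b* were fitted lower. In the whole list of interferon-stimulated genes the summed level was 2828, 2613, 2602 and 2905 CPM against 1292, 2037, 1860 and 1583 CPM, but it is made up largely of these abundant genes. Counted by member, 21 of 35 were fitted above 0 and 14 below, with a median of 0.11 (0.12 with 7 libraries), and *Oasl2* was the third gene without overlap, beside 1.46% of all genes. With 7 libraries 4 members were higher without overlap, these 3 and *Rsad2*, and *Ifit2* (-0.60) and *Gbp3* (-0.87) were lower without overlap, beside 2.24% and 2.73%.

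NF-κB response genes lay on the lower side, with 23 of 31 fitted below 0 (22 with 7 libraries) and medians of -0.38 and -0.33. *Tnfaip3*, the deubiquitinating enzyme A20 that restrains this pathway, had 37.2, 25.2, 33.0 and 36.6 CPM in ASP shGRIN2D and 62.7, 65.0, 44.3 and 63.9 CPM in ASP shSCR (log2 -0.84, SE 0.24, adjusted p = 0.816), with no overlap. It was the 1 member of 31 without overlap, beside 1.13% of all genes. The nuclear inhibitor *Nfkbiz* had 15.7, 10.9, 9.80 and 16 CPM against 27.5, 41.8, 12.1 and 29.7 CPM (log2 -1.08). The cytokine *Csf2*, with a mean of 27.6 counts, was at -1.82 and the chemokine *Ccl2* at 1.01, so the list did not move as one. Leaving out single libraries moved its median between -0.49 and -0.06.

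Late cell cycle genes were fitted slightly lower in most members. Of 30 genes of G2 and M phase 26 were fitted below 0 with 8 libraries and 29 with 7, with medians of -0.14 and -0.22. The kinetochore motor *Cenpe* stood at -0.53 (SE 0.27, and -0.68 with 7 libraries, then without overlap) and the centromeric histone *Cenpa* at -0.61 (SE 0.31). S phase genes had medians of -0.06 and -0.13, and *Ccne1* was the member without overlap, lower in both fits. With 8 libraries this is 0 of 30 genes of G2 and M phase and 1 of 30 of S phase, beside 1.13% of all genes on the lower side. With 7 it is 1 of 30 in each list, beside 2.73%.

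Hypoxia and glycolysis genes leaned lower too, with 21 of 33 below 0 (24 with 7 libraries) and medians of -0.16 and -0.20. Leaving out single libraries moved the median between -0.35 and 0.06. *Pdk1*, the kinase that inhibits pyruvate dehydrogenase, had 8.12, 10.8, 9.91 and 7.17 CPM against 24.9, 81.2, 9.20 and 14.5 CPM, and *Ankrd37*, a HIF-1 target, had 1.19, 3.29, 2.50 and 1.56 CPM against 0.553, 58.5, 1.13 and 3.54 CPM. In both ASP shSCR replicate 2 was far above the rest. The stress gene *Ddit4*, an inhibitor of mTORC1, had 144, 86.8, 86.4 and 120 CPM against 153, 277, 178 and 155 CPM (log2 -0.80, SE 0.28), again with replicate 2 highest but without overlap. It was the 1 integrated stress response gene of 39 without overlap, beside 1.13% of all genes.

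Of the remaining lists, integrated stress response genes stood at -0.03, endoplasmic reticulum chaperones at 0.03, cholesterol synthesis genes at 0.03, genes of epithelial and mesenchymal state at -0.06 and integrin subunits at 0.08. Without ASP shSCR replicate 1 genes of epithelial and mesenchymal state were at -0.09 and integrin subunits at 0.03. Then 3 of 30 (*Epcam*, *Cldn7* and *Esrp1*) and 1 of 16 (*Itga2*) were lower without overlap, and 0 higher, beside 2.73% and 2.24% of all genes. *Xbp1*, a transcription factor of the unfolded protein response, was lower without overlap, at 107, 82.6, 85.2 and 94.4 CPM against 184, 145, 125 and 120 CPM (log2 -0.64). *Insig1*, which retains the sterol sensor, was also lower without overlap (log2 -1.04, and -0.56 with 7 libraries). These were 1 of 24 genes in the endoplasmic reticulum list and 1 of 23 in the cholesterol list, beside 1.13% of all genes. Aspartate and asparagine metabolism (0.17), matrix proteases and inhibitors (0.24) and heat shock chaperones (0.21) were at 0.12, 0.08 and 0.09 without ASP shSCR replicate 1. Of 29 matrix proteases and inhibitors 1 was higher and 1 lower without overlap, beside 1.46% and 1.13% of all genes. With 7 libraries these were 2 and 2, beside 2.24% and 2.73%. *Adam12* was lower in both fits (log2 -0.92, and -0.98 with 7 libraries). The lysosomal protease *Ctsb* was higher without overlap (797, 763, 638 and 763 CPM against 451, 574, 592 and 545 CPM, log2 0.45). It moved with the *Cd68* values above, and the part of leukocyte markers in it was not tested. Over the 50 hallmark gene sets deposited with the counts, medians lay between -0.05 and 0.18 (-0.12 and 0.11 with 7 libraries), and 0 sets held a called gene.

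The sub-polysomal libraries of the same pellets gave calls where the polysomal ones did not. There edgeR called 20 genes higher (0.114%) and 27 lower (0.153%) of 17621, with a median SE of 0.19 for genes with at least 50 counts. Rising genes included *Ly6d* (log2 2.44, adjusted p = 0.000814), *Odf3l1* (1.31, adjusted p = 0.000814), the acid-sensing ion channel *Asic1* (2.33, adjusted p = 0.00116), *Olfm1* (1.08, adjusted p = 0.00477), *Cd300lb* (2.00), *Gas7* (1.77), *Cspg4* (1.86), *Rgs2* (1.09), the iron exporter *Slc40a1* (1.07), the heat shock protein *Hspa1b* (0.93) and *Sulf2* (0.90). Among those that fell were *Krt7*, a simple epithelial keratin (-1.14, adjusted p = 0.00497), the gelatinase *Mmp9* (-1.24, adjusted p = 0.00856), *Cyb561a3*, an iron reductase of lysosomes (-1.27), the BMP antagonist *Nbl1* (-1.22), the G protein subunit *Gng5* (-0.92) and *Ccne1* (-0.88). *Agps*, *Med9*, *Pi4k2b*, *Ccng1*, *Zbed3*, *Trp53i11*, *Lilrb4b*, *Podnl1*, *Pgap1* and *Tmem51*, named above for their polysomal levels, fell as well. Without ASP shGRIN2D replicate 1 the calls were 11 higher and 14 lower, and without replicate 4 they were 9 and 7.

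In polysomes, 18 of those 20 genes were fitted above 0 (19 without ASP shSCR replicate 1), 10 of them (14) at an unadjusted p under 0.05. Of the 27 lower genes 26 were fitted below 0 (27), 18 of them (21) at an unadjusted p under 0.05. Over all 17555 genes in polysomes 8884 were fitted above 0 and 8671 below, with 288 higher and 741 lower at that level. Without ASP shSCR replicate 1 these were 8766 and 8741 of 17507, with 295 and 405. Median log2 differences were 1.27 in the sub-polysomal and 1.25 in the polysomal libraries (1.21 with 7) for the higher genes, and -1.03 and -1.02 (-0.95) for the lower ones. The 2 fractions come from the same pellets, so they are not independent. *Mmp9* shows how the polysomal values spread, with 33.9, 17.3, 27.2 and 60.1 CPM in ASP shGRIN2D against 35.3, 53.8, 65.1 and 70.6 CPM, where the sub-polysomal values were 8.52, 9.69, 11.7 and 13.4 against 24.9, 37.1, 17 and 23.5 CPM. *Asic1* had 3.15, 2.19, 2.56 and 2.84 CPM in polysomes against 1.84, 0.581, 0.903 and 0.962 CPM. *Slc40a1* was at 1.07 in the sub-polysomal and 0.18 in the polysomal libraries.

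**Figure D5:**
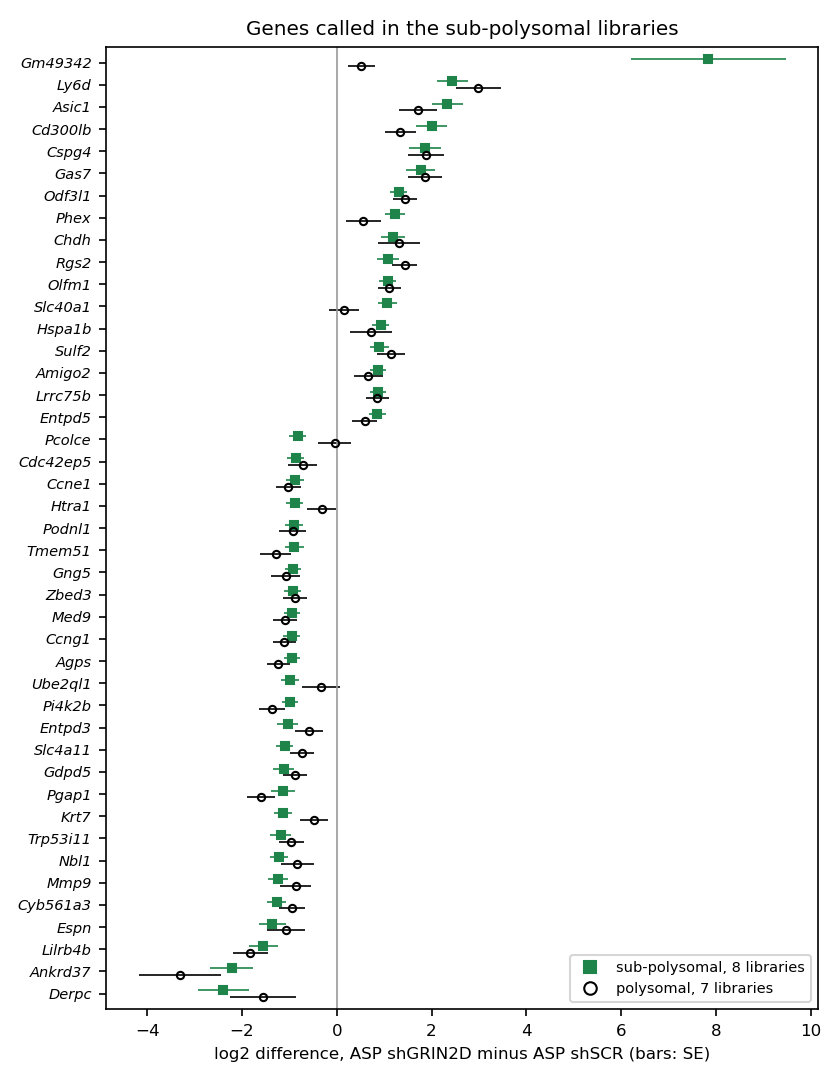
Log2 difference with SE bars, ASP shGRIN2D minus ASP shSCR, for 43 of the 47 genes called in the sub-polysomal libraries (those with a mean of at least 20 counts), green squares for the sub-polysomal and open circles for the polysomal libraries without ASP shSCR replicate 1. In most rows the circle lies on the same side of 0 as the square, with wider bars, and *Slc40a1* and *Pcolce* have circles near 0.

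Whether the difference itself varied between the fractions was tested as an interaction with a term for each pellet. It gave 0 genes higher (0%) and 0 lower (0%) of 17738 at an adjusted p under 0.05, with 128 and 192 at an unadjusted p under 0.05 and 0 by DESeq2. For *Ly6d* the difference between fractions was 0.91 (SE 0.44, adjusted p = 1), for *Rgs2* 0.38 (SE 0.30) and for *Grin2d* -0.28 (SE 0.43). *Gnao1*, the alpha subunit of the G protein Go, had 14.9, 7.58, 7.73 and 13.9 CPM in polysomes of ASP shGRIN2D and 4.05, 4.25, 5.20 and 5.06 CPM in controls, while its sub-polysomal difference was 0.09. Its interaction was 1.13 (SE 0.35), with an unadjusted p of 0.00482 and an adjusted p of 1.

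To use more control libraries, ASP shGRIN2D was also set against the mean of the other 3 conditions in a fit of all 16 polysomal libraries, a comparison added after the data were seen that shares the 8 libraries above. NoASP shSCR and ASP shDHPS differ from ASP shSCR in aspartate and in *Dhps*, so this is not a test of silencing alone. It called 20 genes higher (0.113%) and 8 lower (0.0452%) of 17703. *Ly6d* rose by log2 3.58 (adjusted p = 1.51e-05), and had 0.709 to 2.01 CPM in NoASP shSCR and 0.173 to 0.471 CPM in ASP shDHPS. *Odf3l1* (1.33, adjusted p = 0.00104), *Gas7* (2.01), *Rgs2* (1.12), *Extl1* (1.4), *Cspg4* (1.66), *Sulf2* (1.05), *Cd300lb* (1.35), *Anxa8* (1.12) and *Gnao1* (1.03) were among the others that rose. *Ankrd1* (-1.12, adjusted p = 0.00915), *Cyb561a3* (-1.09), *Med9* (-1.23), *Agps* (-0.98), *Clcn3* (-0.79), *Zbed3* (-0.97) and the cadherin *Cdh17* were among the 8 that fell. *Gpnmb* was at 0.54 (adjusted p = 0.941). Of these calls 11 were also called in the sub-polysomal comparison, *Ly6d*, *Odf3l1*, *Cspg4*, *Gas7*, *Rgs2*, *Sulf2* and *Cd300lb* on the higher side and *Agps*, *Med9*, *Cyb561a3* and *Zbed3* on the lower. Leaving out 1 of the 16 libraries gave from 5 higher calls (without ASP shGRIN2D replicate 1) to 28 (without ASP shSCR replicate 1), and from 0 lower calls (without ASP shGRIN2D replicate 4) to 10 (without ASP shSCR replicate 1). In the same fit *Grin2d* was at -1.25 (adjusted p = 0.127). Some list medians were near that of all genes (-0.02) there. They were 0.01 for initiation factors, 0.02 for proteasome subunits, -0.05 for collagen chains and 0.01 for matrix proteases and inhibitors. Others kept their side, with 0.13 for TGF-β ligands, receptors and SMADs, -0.26 for NF-κB response genes and -0.22 for genes of G2 and M phase.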

How the data were processed

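RNA of the polysomal and sub-polysomal fractions was sequenced as stranded mRNA libraries. The authors trimmed reads with Trim Galore 0.6.6, checked their quality with FastQC 0.11.9, aligned them with STAR 2.6.1 to GRCm39 (mm39), quantified them with Salmon 1.4.0, rounded the estimates and deposited counts for 17757 genes, each with a count in at least 3 of 4 replicates of at least 1 of the 8 groups. The deposited tables of the authors' own DESeq2 1.34.0 comparisons were not used.

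The counts were tested with edgeR 4.0.16 in R 4.3.3 (TMM, quasi-likelihood, two-sided, Benjamini-Hochberg over all genes with a count). DESeq2 1.42.0 and limma 3.58.1 served as alternatives, as did other scalings and filters, and the edgeR fit was tested on simulated counts of the 8 polysomal libraries. CPM of the other conditions were scaled over all 16 polysomal libraries. Named genes were the study's 10 mechanism genes and, by smallest p, up to 12 per direction (8 without ASP shSCR replicate 1) with at least 50 counts and groups that do not overlap, plus up to 4 members of each list with at least 20 counts. The comparison, the 27 gene lists (752 of 810 genes found) and the markers were chosen with earlier results of these data known. Positions came from GENCODE vM21 (GRCm38), which matched 17312 genes (97.5%). Total counts per library were 14571913 to 22075701. Closely related genes (class I, *Ly6*, *Lilrb4*, ribosomal proteins) can share reads, and their values are less certain. Some genes that the rules name are not reported here, though the counts include them.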

Additional observations from a re-analysis of the deposited data

Results flagged for a closer look

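In 8 of 108 groups of 4 libraries examined, 1 library stood farther from the rest than is usual for a group of that size, and chance gives about 1 in 20. In 5 the far library was ASP shSCR polysomal replicate 1, with 352 CPM of *Tgfb1*, 61.9 CPM of *Ccne1*, 51.5 CPM of *Trp53i11*, 310 CPM of *Olfm1* and 22.8 CPM of *Cryab*, each above the other controls. This is the library that lay at 0.35 on the line between the fraction profiles. In ASP shGRIN2D, replicate 4 had 14.3 CPM of *Zbed3*, and replicate 3 had 9.80 CPM of *Pgap1* and 6.45 CPM of *Npr3*, each above the other silenced libraries and below the controls 2 to 4. Apart from *Tgfb1*, the genes flagged here were chosen from these same libraries, *Olfm1* and *Cryab* only in the fit without ASP shSCR replicate 1. Groups that share a library are not independent, so the count of 8 is a description and not a test.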

How the results depend on the processing

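The polysomal counts of 0 higher and 0 lower genes were also 0 and 0 with DESeq2 size factors or upper quartile factors in edgeR, with filterByExpr, with at least 10 counts in every library and with library position as a covariate. DESeq2 gave 20 and 10, all 16 polysomal libraries in one fit gave 3 higher (*Ly6d*, *Rgs2* and *Odf3l1*), limma voom with sample weights 4 higher (*Agt*, *Ly6d*, *Rbp7* and *Odf3l1*), and leaving out single libraries 0 to 1 higher and 0 to 0 lower. Without ASP shSCR replicate 1, DESeq2 gave 25 and 15, the fit of all polysomal libraries 4 and 3, and leaving out a further library 0 to 13 higher and 0 to 6 lower, the highest without ASP shGRIN2D replicate 2. The 47 sub-polysomal calls became 117 with DESeq2 and 16 to 59 without single libraries, 25 without ASP shGRIN2D replicate 1 and 16 without replicate 4. Against the other 3 conditions the 20 higher calls became 5 to 28 and the 8 lower calls 0 to 10 without single libraries, and the lower calls 5 with DESeq2 size factors. *Grin2d* ranged from -1.31 to -0.92. Of 631 values of the 40 named genes under these alternatives, 578 were on the same side of the threshold, 53 passed it and 0 reversed, and 14 of 476 list medians moved by more than the spread. The 40 genes were chosen by small p and no overlap in these same libraries, so reversals were unlikely from the start. Genes named without ASP shSCR replicate 1 were compared only with fits without it. *Olfm1*, whose sign differs with and without that library, is therefore not counted as reversed.

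With a replicate block the polysomal counts were 1 higher (*Ly6d*) and 0 lower, without ASP shSCR replicate 1 63 and 80, the sub-polysomal count 87 and, against the other 3 conditions, 30 higher and 17 lower. Same-numbered libraries correlated at -0.0724, 0.568, -0.123 and 0.27 over 10874 genes (median of 12 other pairs 0.0208), and those of replicates 2 to 4 alone at 0.655, 0.00472 and 0.402. As not every pair was above 0.1, the numbers were not taken to pair the samples. Library positions did follow the numbers in part. Polysomal replicate 2 was lowest in ASP shGRIN2D (0.761), ASP shDHPS (0.85) and NoASP shSCR (0.885), and in ASP shSCR (0.751) once replicate 1 was set aside. Sub-polysomal replicate 4 was highest in every condition. Whether same-numbered pellets share a batch was not tested, and the main calls are those of a fit without a block. Of the 4 ASP shGRIN2D libraries, replicates 2 and 3 had their highest correlation with a control at their own number and replicates 1 and 4 at control 3, a hint from the data and not from the design.

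Precision is limited by 4 libraries per group, 1 of the 8 set apart from the other polysomal libraries, and by a median SE of 0.29. Genes with few counts, *Grin2d* among them, add counting error.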
